A study of Mus musculus with 18 samples.

Results

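The ATP-sensitive potassium (K-ATP) channel subunits were followed in hearts of mice deficient in Kir6.1 and in control hearts. The 4 genes are Kcnj8, Kcnj11, Abcc8 and Abcc9, and the members were all 8 probe sets that the array annotation assigned to one of them alone, of 45037 probe sets tested and 4 of 18193 genes represented. Kcnj8 had 1 probe set (1418142_at), Kcnj11 had 2, Abcc8 had 2 and Abcc9 had 3. No filter on low values was used, so all 8 were tested.

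The groups were Kir6.1 mutant hearts 3 h after PBS, 30 min after lipopolysaccharide (LPS) and 3 h after LPS, and control hearts under the same 3 conditions, with 3 arrays in each of the 6 groups. LPS, the endotoxin of Gram-negative bacteria, was given at 0.5 µg in PBS, and PBS alone served as its vehicle. The allele, the cells in which it was deleted, the strain, the sex and the age of the mice, and the part of the heart taken, were not stated, nor was it said whether each replicate number is a separate animal. The p-values therefore measure the spread between arrays, which may be partly technical. Values are deposited log2 RMA signals from Affymetrix Mouse Genome 430 2.0 arrays, and changes are log2 differences.

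A K-ATP channel joins an inward rectifier pore, Kir6.1 or Kir6.2, to a sulfonylurea receptor, SUR1 or SUR2, which belongs to the ABCC family of transporters. ATP closes the channel and magnesium-bound ADP opens it, so that it couples the metabolic state of a cell to its membrane potential. Kir6.1 with SUR2 forms the channel of vascular smooth muscle and pericytes, whereas Kir6.2 is the pore of the ventricular heart muscle cell and, with SUR1, of the pancreatic beta cell. The comparisons ask whether the other subunits differed where Kcnj8 was disrupted, and whether LPS changed any of the 4.

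The genes lie in 2 adjacent pairs, each with a pore gene and a receptor gene. On GRCm38.p6, Kcnj8 (chr6:142564837-142571614, minus strand) lies 16247 bases from Abcc9 (chr6:142587862-142702766, minus strand). Kcnj11 (chr7:46097123-46100952) lies 3570 bases from Abcc8 (chr7:46104523-46180039). The 250 bases before the annotated start of Kcnj8 (chr6:142571615-142571864) and of Abcc9 (chr6:142702275-142702524) are shown 5′ to 3′ on the minus strand from RefSeq, because these neighbours are read below for their response to LPS. Capitals mark the motif matches named after them.
Kcnj8: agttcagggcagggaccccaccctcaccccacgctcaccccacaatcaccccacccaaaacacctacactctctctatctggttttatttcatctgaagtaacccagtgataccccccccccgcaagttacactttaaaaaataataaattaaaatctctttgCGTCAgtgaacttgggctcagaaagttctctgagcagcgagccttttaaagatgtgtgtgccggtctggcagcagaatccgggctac
Abcc9: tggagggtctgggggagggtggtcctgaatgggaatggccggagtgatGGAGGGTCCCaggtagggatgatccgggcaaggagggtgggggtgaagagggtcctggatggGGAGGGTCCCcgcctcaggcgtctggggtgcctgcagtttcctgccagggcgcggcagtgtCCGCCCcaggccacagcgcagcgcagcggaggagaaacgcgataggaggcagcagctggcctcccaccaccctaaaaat
Kcnj8 held 1 match to the core of the cAMP response element, TGACG, on the other strand, 87 bases before the start. This core was present in 17.8% of 32851 promoter windows of 300 bases, which reach 250 bases before the start. Abcc9 held 2 matches to the NF-kB consensus on the other strand, 202 and 140 bases before the start, and the consensus was present in 7.25% of the windows. Abcc9 also held 1 GC box, GGGCGG, on the other strand, 79 bases before the start, as did 32.7% of the windows with at least 1. Both strands were searched, and neither window matched a TATA box, the AP-1 site TGANTCA, a CArG box or the MEF2 consensus. The matches are descriptions of these letters only, and the annotated Abcc9 gene reaches further upstream than the start used here.

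The arrays of 1 group were not all alike. Mutant LPS 3 h replicates 1 and 3 were the 2 arrays hybridized on a second day, and their 3′ signal exceeded their 5′ signal for the control genes Gapdh and Actb, a measure that grows with shortened RNA, by 1.37 and 1.09, against 0.13 to 0.44 on the other 16 arrays. The first day held replicate 2 of that group, both PBS groups and the control LPS 3 h group, and the third day held both LPS 30 min groups. The mutant LPS 3 h arrays, replicate 2 included, shared no array lot with the mutant PBS or the control LPS 3 h arrays. Leaving out the second day therefore does not separate lot from LPS in mutants, or from genotype at 3 h. Heart identity was checked on 8 cardiomyocyte markers, whose mean signal was 13.1 to 13.5 on the 9 mutant arrays and 13.4 to 13.5 on the 9 control arrays. Results at 3 h after LPS in mutants are set beside their values without the 2 second-day arrays. Only replicate 2 then remains in that group. Any call kept, gained or lost in this way, also in the averaged comparison, rests on 1 mutant array at 3 h and is not a replicated result.

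Kcnj8, which encodes Kir6.1 and is the gene disrupted in the mutants, was low on every mutant array. After PBS its signal was 4.72, 4.43 and 4.35 in mutant hearts (replicates 1, 2 and 3), against 8.52, 8.58 and 8.70 in control hearts. At 30 min after LPS it was 5.11, 4.55 and 4.84 in mutant hearts, against 8.77, 8.90 and 8.69 in control hearts. At 3 h after LPS it was 5.36, 5.27 and 5.30 in mutant hearts, against 8.35, 8.77 and 8.83 in control hearts. The genotypes did not overlap in any condition, and the highest mutant array lay well below the lowest control array, as the plot of every array shows. The difference, mutant minus control, was -4.10 after PBS, -3.96 at 30 min and -3.34 at 3 h (limma adjusted p = 3.02e-10, 5.19e-10 and 7.14e-09). Averaged over the conditions the log2 difference was -3.80 (SE 0.085, limma adjusted p = 1.84e-13). The mutant signal lies near the median of all probe sets, 4.85, and whether it is above background was not measured, so the difference can only be read as a lower bound. Whether its probes fall inside the disrupted sequence was not examined, and in heart RNA fewer cells of a type cannot be told apart from less RNA per cell.

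**Figure D1:**
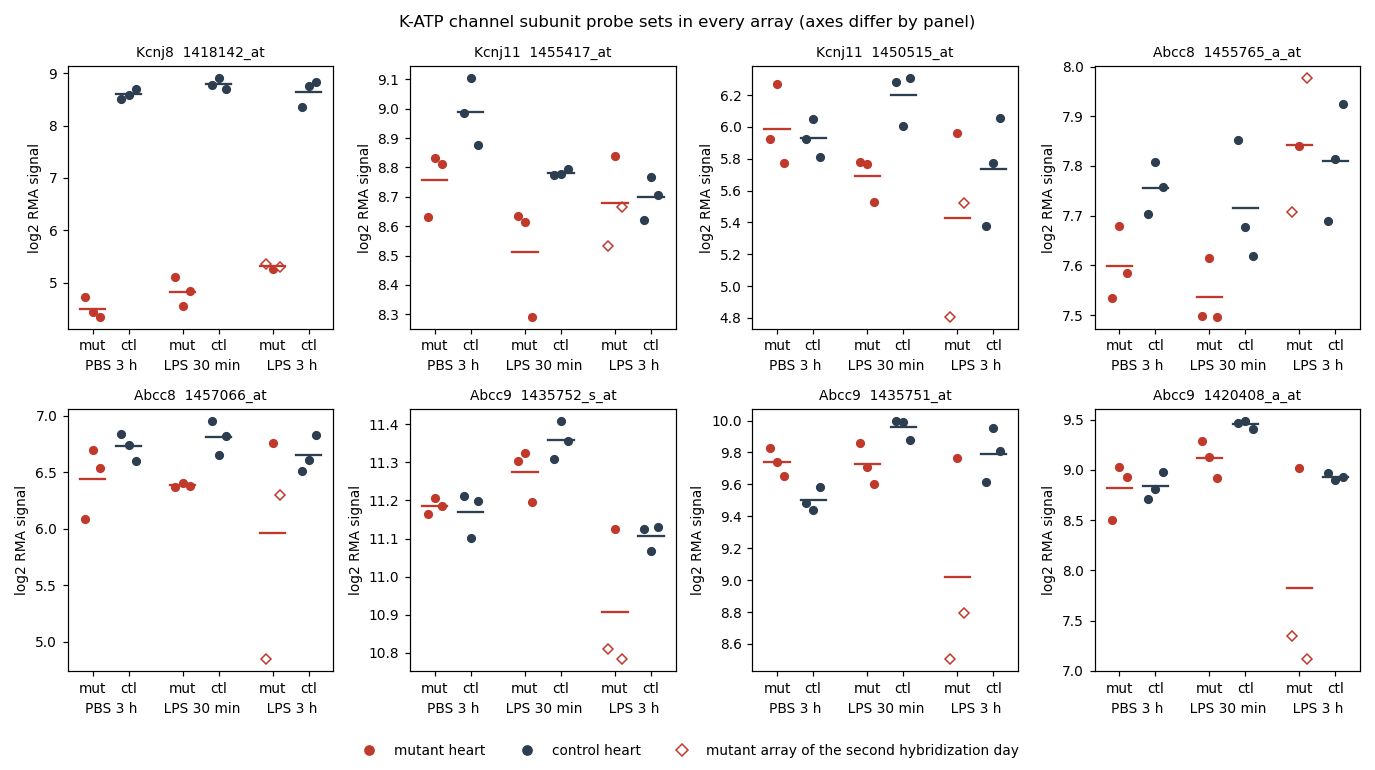
Log2 RMA signal of the 8 probe sets on all 18 arrays, with mutant hearts left of control hearts in each condition; lines are group means of 3 arrays, open diamonds are the 2 second-day arrays, and the vertical axes differ between panels. Kcnj8 separates the genotypes everywhere, between 4.35 and 5.36 in mutants and between 8.35 and 8.90 in controls, and the open diamonds are the lowest points for all 3 Abcc9 probe sets.

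No other subunit passed as higher in mutant hearts in any condition. After PBS, 0 of 8 member probe sets were higher and 1, Kcnj8, was lower, where 0.00888% of all probe sets were called in either direction, and 4 of 8 had groups that did not overlap, as had 20.1% of all. At 30 min after LPS the counts were again 0 higher and 1 lower (0.00888% of all probe sets called). At 3 h after LPS 0 were higher and 3 were lower, namely Kcnj8 and 2 of the 3 Abcc9 probe sets, where 18.4% of all probe sets were called and 10.5% were lower, and 1 of 8 did not overlap (17.6% of all). Without the second-day arrays Kcnj8 alone was called at 3 h. Averaged over the conditions 0 were higher and 1 was lower (2.34% called, 0.957% lower). The median member difference was -0.09 after PBS, -0.31 at 30 min, -0.49 at 3 h and -0.25 averaged, beside medians over all probe sets of 0.00, 0.00, 0.08 and 0.02.

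Kcnj11 encodes Kir6.2, the alternative pore. On its probe set 1455417_at the signal after PBS was 8.63, 8.83 and 8.81 in mutant hearts, against 8.99, 9.10 and 8.88 in control hearts. At 30 min after LPS it was 8.63, 8.62 and 8.29 in mutant hearts, against 8.77, 8.78 and 8.79 in control hearts. At 3 h after LPS it was 8.53, 8.84 and 8.66 in mutant hearts, against 8.62, 8.77 and 8.71 in control hearts. The mutant arrays lay below the control arrays without overlap after PBS and at 30 min, and overlapped with them at 3 h. The difference was -0.23 after PBS (95% interval -0.46 to 0.00), -0.27 at 30 min (-0.50 to -0.04) and -0.02 at 3 h (-0.25 to 0.21, and 0.14 without the second-day arrays). None passed (limma adjusted p = 0.991, 1 and 0.909), and the averaged difference of -0.17 (SE 0.063) did not pass either (limma adjusted p = 0.147).

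The dimmer Kcnj11 probe set, 1450515_at, differed by 0.06 after PBS (95% interval -0.43 to 0.55), -0.51 at 30 min (-0.99 to -0.02) and -0.30 at 3 h (-0.79 to 0.18, and 0.23 without the second-day arrays). Its signal at 30 min was 5.78, 5.77 and 5.53 in mutant hearts, against 6.28, 6.01 and 6.31 in control hearts, with no overlap. After PBS it was 5.93, 6.27 and 5.78 in mutant hearts, against 5.92, 6.05 and 5.81 in control hearts. At 3 h it was 4.81, 5.96 and 5.52 in mutant hearts, against 5.38, 5.77 and 6.06 in control hearts. These groups overlapped, and after PBS the upper interval ends of the Kcnj11 probe sets, the largest rise each allows, were 0.00 and 0.55. With the third-day arrays alone the 30 min difference of 1450515_at passed (limma adjusted p = 0.0474, against 1 with all 18 arrays). The share of all probe sets called in that fit is not given here, so this call cannot be read as particular to Kcnj11.

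Abcc8 encodes SUR1, the receptor that pairs with Kir6.2 in beta cells and in mouse atrial muscle. Probe set 1455765_a_at read 7.53, 7.68 and 7.58 after PBS in mutant hearts, against 7.70, 7.81 and 7.76 in control hearts. At 30 min it read 7.50, 7.61 and 7.50 in mutant hearts, against 7.85, 7.68 and 7.62 in control hearts. At 3 h it read 7.71, 7.84 and 7.98 in mutant hearts, against 7.69, 7.81 and 7.93 in control hearts. Mutant arrays were the lower ones without overlap after PBS and at 30 min, and the groups overlapped at 3 h. The differences were -0.16 (95% interval -0.36 to 0.05), -0.18 (-0.38 to 0.02) and 0.03 (-0.17 to 0.24, and 0.03 without the second-day arrays), and none passed (limma adjusted p = 1, 1 and 0.835).

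The other Abcc8 probe set, 1457066_at, spread widely in 1 group. It read 6.08, 6.70 and 6.54 after PBS in mutant hearts, against 6.84, 6.74 and 6.60 in control hearts. At 30 min it read 6.37, 6.41 and 6.38 in mutant hearts, against 6.95, 6.66 and 6.82 in control hearts, the one condition without overlap. At 3 h it read 4.85, 6.76 and 6.30 in mutant hearts, against 6.51, 6.61 and 6.83 in control hearts, and the lowest value came from a second-day array. The differences were -0.29, -0.42 and -0.68, none past the threshold (limma adjusted p = 1, 1 and 0.144), and the 3 h difference was 0.11 without the second-day arrays. With the third-day arrays alone the 30 min difference passed (limma adjusted p = 0.0452), and the share of all probe sets called in that fit is not given here. Of 5 measured markers of beta cells and neurons, 0 were called in the averaged genotype comparison, and their mean signal was 4.16 to 4.60 on mutant arrays and 4.11 to 4.47 on control arrays. Of 5 atrial muscle markers 0 were called, with a mean of 10.1 to 11.6 on mutant arrays and 10.6 to 11.3 on control arrays.

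Abcc9 encodes SUR2, whose splice forms serve heart muscle and vascular smooth muscle, and the probe sets are not assigned to splice forms here. After PBS and at 30 min no Abcc9 probe set was called between genotypes. After PBS probe set 1435752_s_at read 11.16, 11.21 and 11.19 in mutant hearts, against 11.21, 11.10 and 11.20 in control hearts, a difference of 0.01 (95% interval -0.18 to 0.21). Probe set 1435751_at read 9.83, 9.74 and 9.65 in mutant hearts, against 9.49, 9.44 and 9.58 in control hearts, without overlap (0.24, interval -0.22 to 0.70, limma adjusted p = 1). Probe set 1420408_a_at read 8.50, 9.03 and 8.93 in mutant hearts, against 8.71, 8.81 and 8.98 in control hearts, a difference of -0.02 (interval -0.71 to 0.68). The 3 probe sets thus gave no common direction after PBS.

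At 30 min after LPS all 3 Abcc9 estimates were below 0. Probe set 1435752_s_at read 11.30, 11.32 and 11.20 in mutant hearts, against 11.31, 11.41 and 11.36 in control hearts. Probe set 1435751_at read 9.86, 9.71 and 9.60 in mutant hearts, against 9.997, 9.992 and 9.881 in control hearts. Probe set 1420408_a_at read 9.29, 9.13 and 8.92 in mutant hearts, against 9.47, 9.49 and 9.41 in control hearts. The mutant arrays were lower without overlap on the last 2 probe sets, and the differences were -0.08, -0.23 and -0.34 (limma adjusted p = 1 for each). Of the 8 members 7 had groups that did not overlap at 30 min, as did 20.2% of all probe sets, and all 8 estimates were below 0.

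At 3 h after LPS the 3 mutant arrays disagreed on Abcc9. Probe set 1420408_a_at read 7.35, 9.02 and 7.11 in mutant hearts, against 8.97, 8.90 and 8.93 in control hearts. Probe set 1435751_at read 8.50, 9.77 and 8.79 in mutant hearts, against 9.61, 9.95 and 9.81 in control hearts. Probe set 1435752_s_at read 10.81, 11.13 and 10.78 in mutant hearts, against 11.13, 11.07 and 11.13 in control hearts. On each probe set the second-day arrays, replicates 1 and 3, were low, and replicate 2 lay within or just above the range of the control arrays. The differences were -1.11 (SE 0.33, limma adjusted p = 0.0297), -0.77 (SE 0.22, limma adjusted p = 0.0241) and -0.20 (limma adjusted p = 0.131). Without the second-day arrays they were 0.09, -0.02 and 0.02, and no Abcc9 probe set was called. Relative to replicate 2, the second-day arrays were lower by 1.79, 1.12 and 0.33 on these probe sets, and 1.5% of all probe sets had a lower offset than 1420408_a_at. The offset was 0.06 for Kcnj8, beside a median over all probe sets of 0.05.

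Some markers of several cell types also differed by genotype at 3 h after LPS. In that comparison 18.4% of all probe sets were called and 10.5% were lower, so small counts are common to any list. By genotype 2 of 6 endothelial markers were lower in mutants, Pecam1 (-1.53) and Emcn (-1.01), and 3 of 5 fibroblast markers, Lum (-1.04), Dcn (-0.79) and Pdgfra (-0.39). Of 8 cardiomyocyte markers Ttn (-0.76) and Ryr2 (-0.45) were lower, of 5 macrophage markers Cd68 was lower (-0.62), and of 3 neutrophil markers S100a9 was higher (2.0004). Of 12 pericyte and smooth muscle markers 3 were higher, Higd1b (1.88), Pdgfrb (0.99) and Notch3 (0.84), and of the beta cell and neuron markers Chga was higher (0.38). With the second-day arrays left out, 2 pericyte and smooth muscle markers were called, both higher, and 0 of the other lists named here. Their part in the Abcc9 differences was not tested.

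**Figure D2:**
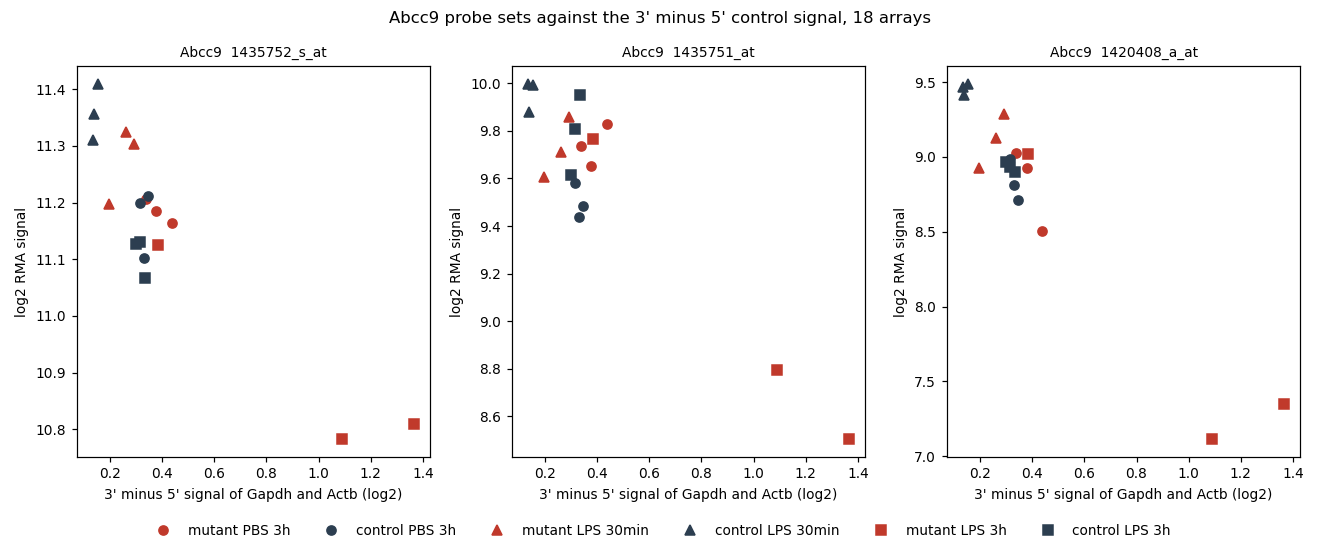
Log2 RMA signal of the 3 Abcc9 probe sets (vertical) against the 3′ minus 5′ difference for Gapdh and Actb (horizontal, log2) on 18 arrays; colour gives genotype and shape gives condition. The 2 arrays at 1.37 and 1.09 have the lowest Abcc9 signal in each panel, and the other 16 lie between 0.13 and 0.44.

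**Figure D3:**
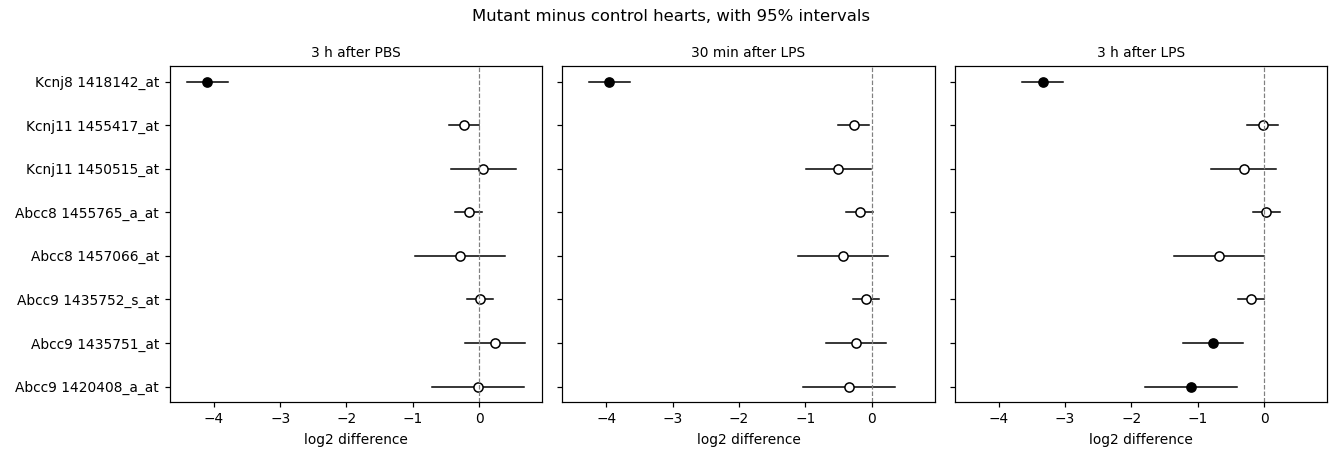
Mutant minus control log2 difference of each member probe set in the 3 conditions, with 95% intervals from the limma fit; filled points passed the adjusted threshold. Kcnj8 lies between -4.10 and -3.34, and the other filled points are 2 Abcc9 probe sets at 3 h after LPS.

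No member passed the test for an LPS effect in control hearts. At 30 min 0 of 8 passed (0.142% of all probe sets called). Under 0.05 unadjusted in limma were 0 of 8, beside 3699 of all 45037 probe sets. At 3 h 0 of 8 passed (0.500% of all called), and 1 was under 0.05 unadjusted in limma, beside 4736 of all 45037. The groups did not overlap for 2 members (19.0% of all probe sets). The 1 member under 0.05 was Kcnj11 1455417_at at -0.29 (95% interval -0.52 to -0.06, limma adjusted p = 0.333). Control Kcnj8 differed from PBS by 0.19 at 30 min and 0.05 at 3 h, with intervals of -0.12 to 0.50 and -0.26 to 0.36, and changes up to these ends are within the error of the arrays. Ordered by mean, control Kcnj8 was 8.60 ± 0.09 after PBS, 8.65 ± 0.26 at 3 h and 8.79 ± 0.11 at 30 min after LPS (SD, n = 3 each), and neighbours in that order overlapped.

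In control hearts at 30 min the largest estimates were those of 2 Abcc9 probe sets, 1420408_a_at and 1435751_at. The 3 Abcc9 probe sets were 0.62, 0.46 and 0.19 higher than after PBS (1420408_a_at, 1435751_at and 1435752_s_at), each without overlap, as were 29.1% of all probe sets in either direction. None passed with all arrays (limma adjusted p = 0.676, 0.612 and 0.631). In the fit without the second-day arrays 1420408_a_at and 1435751_at passed (limma adjusted p = 0.0175 and 0.0221). The share of all probe sets called in that fit is not given here, so these gained calls cannot be read as particular to Abcc9. All 30 min arrays were hybridized on another day and came from another lot than the PBS arrays, so LPS and day cannot be told apart here. At 3 h, on the same day as PBS but on other array lots, the estimates were 0.10, 0.29 and -0.06, and LPS and lot cannot be told apart.

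In mutant hearts no member passed at 30 min, where 0 of 8 were called (0.0488% of all probe sets). Under 0.05 unadjusted in limma were 2 of 8, beside 3024 of all 45037 probe sets. For 0 of 8 the groups did not overlap (24.8% of all). At 3 h 1 member was higher and 3 were lower, beside 7.99% higher and 13.1% lower among all probe sets (21.1% called), and 3 of 8 did not overlap (27.9% of all). The higher one was Kcnj8, at 5.36, 5.27 and 5.30 after LPS, against 4.72, 4.43 and 4.35 after PBS. All 3 LPS arrays lay above all 3 PBS arrays, and the difference was 0.81 (SE 0.15, limma adjusted p = 0.00295). These signals lie around the median of all probe sets, 4.85, and whether they are above background was not measured. The difference was 0.77 without the second-day arrays and within the first day, each with 1 mutant LPS array left. Its call was lost in 2 of 29 other fits, within the first day and with only the arrays compared. All 3 LPS arrays came from other lots than the PBS arrays, so LPS and lot cannot be told apart. Mutant Kcnj8 was 4.50 ± 0.20 after PBS, 4.83 ± 0.28 at 30 min and 5.31 ± 0.05 at 3 h (SD, n = 3 each), with overlap between PBS and 30 min.

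The 3 lower members in mutant hearts at 3 h were the Abcc9 probe sets. The differences from PBS were -0.99 for 1420408_a_at, -0.72 for 1435751_at and -0.28 for 1435752_s_at (limma adjusted p = 0.0413, 0.0285 and 0.0404). Without the second-day arrays they were 0.20, 0.03 and -0.06, and none was called. The signal of cell types on the same arrays moved too: 6 of 6 endothelial markers fell in this comparison, where 13.1% of all probe sets were lower. Among them were Pecam1 (-1.56), Kdr (-1.18), Emcn (-1.09) and Cdh5 (-1.03), which serve adhesion and growth factor sensing of the vessel lining. Without the second-day arrays 0 of 6 endothelial markers were called, and Pecam1 was 0.08 and Emcn 0.12. Of 5 fibroblast markers 2 fell, Lum (-0.98) and Dcn (-0.73), and without those arrays 0 were called and Dcn was 0.04. Of 8 cardiomyocyte markers 2 fell, the sarcomere gene Ttn (-0.90) and the calcium release channel gene Ryr2 (-0.45), against 0 without those arrays. In control hearts, with no second-day arrays, LPS at 3 h gave Kdr -0.90, Cdh5 -0.32, Pecam1 0.21 and Emcn 0.17, and none was called. The part of these cell types and of RNA length in the Abcc9 difference was not tested.

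The difference between genotypes in the LPS effect was tested directly. At 30 min 0 of 8 members passed (0% of all probe sets called), and 0 were under 0.05 unadjusted in limma, beside 881 of all 45037. At 3 h 0 of 8 passed (0.104% of all called). Of all 45037 probe sets 10018 were under 0.05 unadjusted in limma, and of the 8 members 3 were. These were Kcnj8 at 0.76 (95% interval 0.32 to 1.20, limma adjusted p = 0.104), Abcc9 1435751_at at -1.01 (limma adjusted p = 0.114) and Abcc9 1420408_a_at at -1.09 (limma adjusted p = 0.183). Without the second-day arrays these were 0.72, -0.26 and 0.10, so that the sign of the last one turned. The LPS effects of a genotype share its PBS arrays, and the genotype effects at each time share no arrays.

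**Figure D4:**
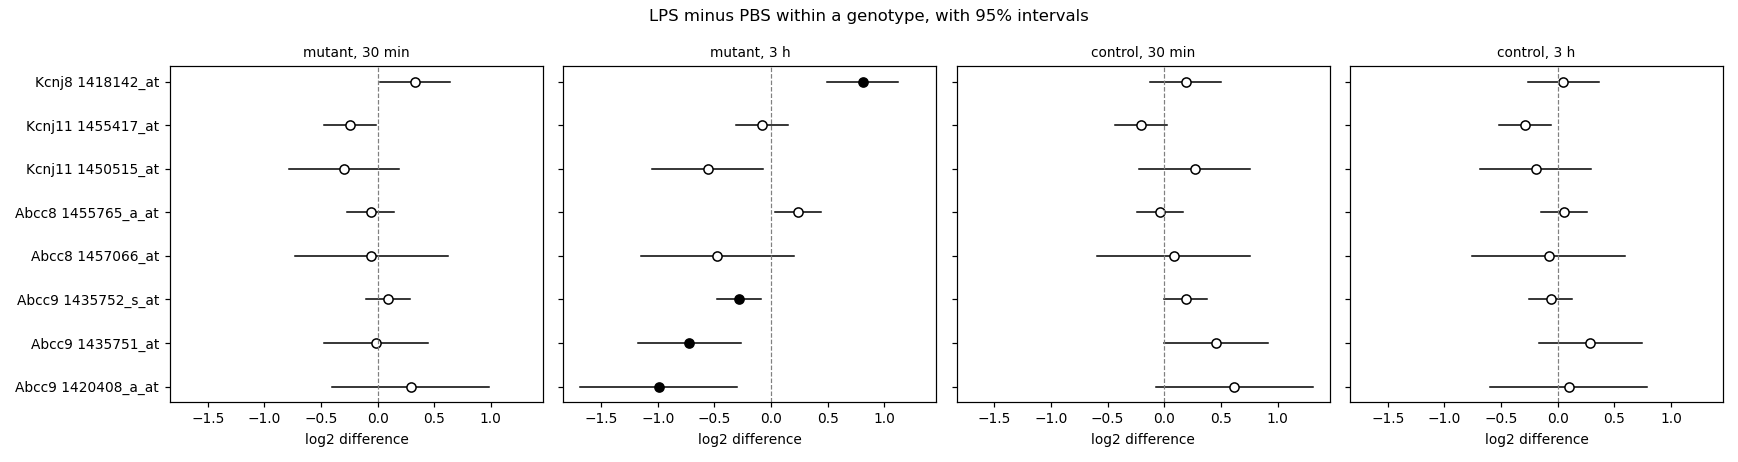
LPS minus PBS log2 difference of each member probe set, for mutant hearts at 30 min and 3 h and then control hearts at 30 min and 3 h, with 95% intervals; filled points passed the adjusted threshold. The filled points are Kcnj8 at 0.81 and the 3 Abcc9 probe sets between -0.99 and -0.28, all in mutants at 3 h.

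Other genes that could stand in for the channel or act on it were read from lists. Of 13 other inward rectifier channel genes 0 were called in the averaged genotype comparison, and none was under 0.05 unadjusted in limma. Kcnj1 and Kcnj16, which had the smallest p-values, had log2 differences of 0.15 and 0.12 (limma adjusted p = 0.31 and 0.36). In the genotype comparison at 3 h after LPS 2 of 13 were higher in mutants, Kcnj14 (0.47, limma adjusted p = 0.0358) and Kcnj16 (0.39, limma adjusted p = 0.0272), beside 18.4% of all probe sets called. Over all arrays Kcnj14 read 3.80 to 4.75 and Kcnj16 3.65 to 4.30, below the median of all probe sets, 4.85. Whether they are above background was not measured. Without the second-day arrays Kcnj14 was 0.64 and Kcnj16 0.48, values that rest on 1 mutant array at 3 h. With all arrays 0 of 13 passed after PBS or at 30 min. In mutants at 3 h after LPS, where 7.99% of all probe sets were higher and 13.1% lower, 1 of 13 was higher, Kcnj14 (0.45). In the averaged genotype comparison 2.34% of all probe sets were called. Of 9 other ABCC transporter genes 1 was higher in mutants, Abcc4, an exporter of cyclic nucleotides (0.36 averaged over the conditions, limma adjusted p = 0.0178). Its group means were 7.46, 7.51 and 7.81 in mutants after PBS, at 30 min and at 3 h, against 7.19, 7.26 and 7.25 in controls. By genotype at 3 h after LPS Abcc4 was higher (0.56) and Abcc1 lower (-0.25), and 0 of 9 were called without the second-day arrays. In mutants at 3 h after LPS 1 of the 9 was lower, Abcc1 (-0.25), and 0 were called without the second-day arrays.

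Among proteins that anchor K-ATP channels or sense energy beside them, 0 of 11 were called by genotype after PBS and 0 at 30 min. At 3 h after LPS 18.4% of all probe sets were called by genotype and 10.5% were lower. Averaged over the conditions 2.34% were called, and 8631 of all 45037 were under 0.05 unadjusted in limma. By 3 h after LPS 5 of 11 were lower in mutants, with Ank2 at -0.51, Gpd1l at -0.48, Ckm at -0.35 and the glycolytic gene Aldoa at -0.30 (list median -0.30, beside 0.08 for all probe sets), and 0 were called without the second-day arrays. Of the 11 measured genes 0 were called in the averaged comparison and 2 were under 0.05 unadjusted in limma, Gpd1l (-0.23) and the muscle creatine kinase gene Ckm (-0.15), while 1 was higher without the second-day arrays. In mutants at 3 h after LPS 6 of 11 were lower, beside 13.1% of all probe sets. Among these the caveolin gene Cav1 was at -0.90, the ankyrin gene Ank2 at -0.74, Gpd1l at -0.51 and Ckm at -0.38. None of these 11 was called in that comparison without the second-day arrays.

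Receptors, cyclases and kinases that open or close vascular K-ATP channels held 4 calls among 17 measured genes in the averaged genotype comparison, where 2.34% of all probe sets were called. Nos3, the endothelial nitric oxide synthase gene, was higher in mutants by 0.48 (limma adjusted p = 0.0168), Npr1, a natriuretic peptide receptor gene, by 0.32 (0.0338), and Ramp2, a receptor partner for adrenomedullin, by 0.31 (0.0454). Npr1 read only 3.45 to 4.42 over all arrays, below the median of all probe sets, 4.85. Whether it is above background was not measured. Agtr1a, an angiotensin II receptor gene, was lower by -0.39 (limma adjusted p = 0.00934). The counts were also 3 higher and 1 lower without the second-day arrays. Within conditions 0 of 17 were called by genotype after PBS and 0 at 30 min. At 3 h after LPS, where 18.4% of all probe sets were called and 10.5% were lower, 4 of 17 were higher and 4 lower. These included Prkar1a (-1.19), Ppp3ca (-0.86), Gnas (-0.74) and Ramp1 (0.74), and 1 was higher and 0 lower without the second-day arrays. In mutants at 3 h after LPS 1 rose, Ramp1 (0.87), and 6 fell, among them Prkar1a (-1.29), Ppp3ca (-0.95) and Gnas (-0.75). Of all probe sets 7.99% were higher and 13.1% lower in that comparison. With those arrays left out 0 rose and 2 fell, and Gnas was 0.01.

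Markers of pericytes and smooth muscle were read beside Kcnj8. The mean of 12 pericyte and smooth muscle markers was 8.32 to 8.63 on the 9 mutant arrays and 8.02 to 8.25 on the 9 control arrays, without overlap. The markers did not all move alike. After PBS the smooth muscle genes Acta2 (-0.47), Tagln (-0.11) and Myh11 (-0.04) were below 0, the rest of the 12 were above 0, and none was called. The part of cell numbers in the Kcnj8 difference was not tested. In the genotype comparison averaged over the conditions 2.34% of all probe sets were called and 0.957% were lower. In the averaged comparison 2 of 12 were higher and 0 lower, Higd1b (1.17, limma adjusted p = 0.00385) and Pdgfrb (0.74, limma adjusted p = 0.0328), and 4 were higher without the second-day arrays. Higd1b averaged 8.36, 8.62 and 9.61 in mutants after PBS, at 30 min and at 3 h, against 7.61, 7.74 and 7.72 in controls. For LPS at 3 h against PBS in mutants, 7.99% of all probe sets were higher and 13.1% lower. In mutants at 3 h after LPS 1 of 12 was higher, Higd1b (1.25), and without the second-day arrays Higd1b was 0.11 and 1 other marker was lower. Endothelial markers held 1 averaged genotype call of 6, Tie1 (0.49), and 3 without the second-day arrays. Fibroblast, macrophage, neutrophil and cardiomyocyte markers held 0 calls among 5, 5, 3 and 8 measured genes in the averaged genotype comparison. Under 0.05 unadjusted in limma were 3, 1, 2 and 2 of them, beside 8631 of all 45037 probe sets. In mutants at 3 h after LPS 2 macrophage markers rose, Cd14 (0.95) and Mrc1 (0.43), and 2 neutrophil markers, S100a9 (3.15) and S100a8 (3.09), and without the second-day arrays 2 macrophage and 0 neutrophil markers were called.

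**Figure D5:**
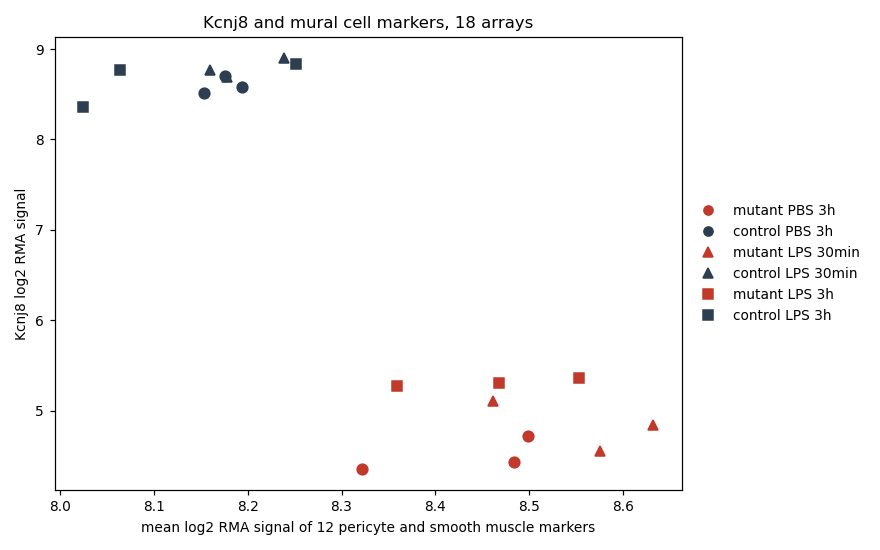
Kcnj8 log2 RMA signal (vertical) against the mean log2 RMA signal of 12 pericyte and smooth muscle markers (horizontal) on 18 arrays; colour gives genotype and shape gives condition. Mutant arrays lie at 8.32 to 8.63 on the marker axis and control arrays at 8.02 to 8.25, while Kcnj8 is low in mutants and high in controls.

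The genes beside the members were read for a local change around the disrupted gene. Of 17 measured genes among the 20 nearest Kcnj8 and Abcc9 on chromosome 6, 0 were called after PBS, at 30 min or averaged. Beside 2272, 1824 and 8631 of all 45037 probe sets, 1, 1 and 5 of the 17 were under 0.05 unadjusted in limma. At 3 h after LPS 1 was higher and 6 lower, where 18.4% of all probe sets were called, and 1 was higher and 0 lower without the second-day arrays. Of the 20 nearest Kcnj11 and Abcc8 on chromosome 7, 0 were called after PBS or at 30 min. At 3 h after LPS 3 of these 20 were higher and 3 lower, so calls at 3 h were not particular to chromosome 6. In the averaged comparison, where 2.34% of all probe sets were called, 1 of the 20 was, Tmem143 (-0.67, limma adjusted p = 0.0419). Without the second-day arrays Tmem143 was -0.37, a value that rests on 1 mutant array at 3 h.

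The genes whose signal followed each member most closely were ranked by Pearson correlation among 11794 genes. For Kcnj8, over the 9 control arrays, they were Zfp112, Cul7, Abca3, Stx3 and Klhl8 (r = 0.92 to 0.91). Over the 16 arrays outside the second day, Kcnj11 was followed by Ank1 (r = 0.91), Egr3, Zfp358, Ncln and Eif4ebp2, and Abcc8 by Cdk5rap3 (r = 0.92), Dusp28, Tcf25, Dok2 and 1700088E04Rik. Abcc9 was followed by Dlat (r = 0.88), Gtf2e1, Esrrb, Olfr78 and Srsf3. Several of these did not hold over all 18 arrays, where r was -0.37 for Esrrb with Abcc9, and 0.14 for Tcf25 and 0.35 for Dusp28 with Abcc8. The arrays share days and groups, so these values describe likeness only. Between probe sets of 1 gene, r over the 16 arrays was 0.52 for the Kcnj11 pair, 0.74 for the Abcc8 pair and 0.43 to 0.77 for the Abcc9 pairs, and over all 18 it was 0.56, 0.22 and 0.84 to 0.93.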

How the data were processed

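Heart RNA was measured on 18 single-colour arrays. The deposited log2 values were made with RMA, per the submitters' processing notes, whose version and settings were not stated. RMA corrects background, normalizes between arrays and compresses small signals, which understates differences between low values. The array medians ran from 4.71 to 4.97. Other deposited text fields, from each array's experiment file, gave hybridization day and lot. The number of arrays limits the precision.

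After 64 control probe sets were left out, 45037 were fitted without a filter in limma 3.58.1 (R 4.3.3) with 6 group means, 12 residual and 3.83 prior degrees of freedom, and 10 contrasts. Benjamini-Hochberg adjustment ran over all probe sets of a contrast at a threshold of 0.05. The annotation gave 1 symbol for 34945 probe sets, several for 932 and none for 9160. Outside the members, a gene was read from its probe set of highest mean. The closest 2 arrays differed with an SD of 0.16, so none was a copy. The fit was tested on simulated data.

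The members and 13 lists (112 genes, 103 measured) were chosen with earlier results of these data known. Named genes were all member probe sets, the 5 genes most correlated with each member among those at or above the median signal, neighbouring genes past the threshold in the averaged comparison, and, from each list in the genotype comparisons at 3 h and averaged and in mutants at 3 h after LPS, up to 4 past the threshold with the largest change, or, where none passed, those with the smallest p-values. Alternatives were other normalization and filters, day and replicate blocks, array weights, fewer arrays and leaving out each replicate. Sequences came from RefSeq tables, which held 2 of the 4 promoters.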

Additional observations from a re-analysis of the deposited data

How the results depend on the processing

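The Kcnj8 genotype difference passed in every fit run, and the limits concern the mutant LPS 3 h group, in which 2 of 3 arrays came from the second day. The numbers of members called in the genotype comparison were 3 at 30 min with third-day arrays only and with only the arrays compared, against 1. At 3 h they were 1 with day as a block, first-day arrays, no second-day arrays, only the arrays compared or 1 probe set per gene, against 3. Averaged, 4 were called with array weights, against 1. For LPS at 3 h in mutants, against 4, the counts were 2 with quantile normalization or 1 probe set per gene, 1 with day as a block or no second-day arrays, and 0 with first-day arrays or only the arrays compared. For LPS at 30 min in controls 2 were called with no second-day arrays, array weights or only the arrays compared, against 0, and the genotype difference in the 3 h LPS effect gave 2 with array weights, against 0. Leaving out each replicate gave 1 to 1 after PBS, 1 to 1 at 30 min, 1 to 5 at 3 h, 1 to 7 averaged, 0 to 0 and 1 to 6 for LPS at 30 min and 3 h in mutants, 0 to 2 and 0 to 0 in controls, and 0 to 0 and 0 to 4 for the differences in LPS effect. The highest counts at 3 h, averaged and for the difference in the 3 h effect, 5, 7 and 4, came without mutant LPS 3 h replicate 2, which leaves the second-day arrays alone. All these counts stand without the share of all probe sets called in the same fit. A changed count can therefore not be read as particular to the members. The sign turned with day as a block, with first-day arrays and without second-day arrays for the genotype at 3 h in Abcc9 1420408_a_at (0.087), Ank2 (0.013), Gpd1l (0.013), Gnas (0.018), Notch3 (-0.084), Pecam1 (0.11) and Emcn (0.20), and, for LPS at 3 h in mutants, for Abcc9 1435751_at (0.027) and 1420408_a_at (0.20), Gnas (0.0093), Pecam1 (0.078), Emcn (0.12) and Dcn (0.036). The cause was not tested.

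The labels name no pairing by replicate number, and none was used. Deviations from group means of same-numbered arrays correlated at -0.129 to 0.359 over 21 pairs, with 5 over 0.1. With 3 arrays per group this check cannot exclude pairing. With the replicate block no member call changed, and Kcnj8 for LPS at 3 h in mutants had a limma adjusted p of 0.0059. A day block or within-day fit could not be fitted for LPS 30 min against PBS, which lie on different days.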
